A study of Homo sapiens with 16 samples.

Results

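The 10 genes CDH1, CDH2, CDH3, VIM, FN1, SNAI2, ZEB1, ZEB2, EPCAM and ESRP1, which are commonly used to follow the epithelial to mesenchymal transition, were examined by RNA sequencing in A431 and HaCaT cells. They were taken by symbol from the 26229 genes of the count table, and each symbol was found once. A431 is an epidermoid carcinoma line and HaCaT is an immortalised keratinocyte line. Cells of both lines were grown in DMEM with 10% FCS. For each line the siRNA arm had 1 control library (siCTRL) and 3 libraries after knockdown of YAP1 (siYAP), and the vector arm had 1 empty vector library and 3 libraries with YAP5SA, a constitutively active YAP1, which makes 16 libraries. The siRNAs were transfected on 2 occasions 24 h apart and RNA was taken 48 h after the second. Each control group was 1 library, so the spread between control cultures was not measured.

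In an epithelial to mesenchymal transition, cells lose the adherens junctions and apical polarity of an epithelium and take on a migratory, matrix-producing character. E-cadherin (CDH1) is the main cadherin of epithelial adherens junctions, and its partial replacement by N-cadherin (CDH2) is a classical sign of the transition. Slug (SNAI2), ZEB1 and ZEB2 are transcription factors that bind E-box motifs and can repress CDH1, although Slug is also a normal factor of basal keratinocytes. EPCAM and the splicing regulator ESRP1 belong to the epithelial state, and vimentin (VIM) and fibronectin (FN1) to the mesenchymal one. P-cadherin (CDH3) is the cadherin typical of basal keratinocytes. YAP1 is a transcriptional co-activator that acts mainly through TEAD factors.

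The libraries held between 18115599 and 46791617 read pairs assigned to genes. A count of 0 allows up to 3 counts, or 0.063 to 0.164 CPM (counts scaled to a common number of assigned pairs), and this limit covers counting error only. YAP1 was read first as a check of the labels. With siYAP it had 5.04 to 6.99 CPM in A431 cells against 94.2 CPM with siCTRL, and 21.6 to 23.2 CPM in HaCaT cells against 254 CPM. With YAP5SA, whose transcript is counted together with the endogenous one, YAP1 had 1490 to 3240 CPM in the A431 line (empty vector, 124 CPM) and 7550 to 22200 CPM in the HaCaT line (empty vector, 423 CPM). YAP1 therefore moved as labelled in every treated library, and reached higher levels in HaCaT than in A431 cells. EGFR, which A431 cells are known to carry in extra copies, had 750 to 1360 CPM in the 8 A431 libraries and 297 to 557 CPM in the 8 HaCaT libraries, without overlap. The 9 keratinocyte markers summed to 3090 to 5810 CPM in A431 and 3550 to 8090 CPM in HaCaT cells, whereas the 10 fibroblast markers summed to 2.61 to 14.9 and 1.34 to 28 CPM. The leukocyte markers (6) summed to at most 7.17 CPM and the melanocyte markers (6) to 33.8 to 118 CPM, of which 2, TYR and DCT, had 3 counts or fewer in every library of either line.

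Levels between genes were compared as the median CPM over the libraries of a line per kilobase of transcript. In A431 cells the order was EPCAM (180), CDH3 (97.7), ESRP1 (75.9), CDH1 (55.5), SNAI2 (25.7), VIM (0.347) and FN1 (0.21). In HaCaT cells it was EPCAM (124), CDH1 (103), CDH3 (85.4), ESRP1 (67.2), SNAI2 (29.8), CDH2 (2.85) and FN1 (1.14). These medians pool conditions, and the order differed between them in HaCaT cells. By group means per kilobase CDH1 (134) was above EPCAM (111) with siYAP, CDH3 (119) was above CDH1 (100) with YAP5SA, and FN1 ran from 0.141 with siCTRL to 11.5 with YAP5SA. Both lines thus carried abundant transcripts of the epithelial cadherins, EPCAM and ESRP1 and very few of VIM, ZEB1 and ZEB2. ZEB1 had at most 5 counts in an A431 library and 10 in a HaCaT library, and ZEB2 at most 6 and 25. The antisense gene ZEB1-AS1 had 8 to 88 counts a library, and without strand in the counting its reads and those of ZEB1 may not be separable. ZEB1 and ZEB2 missed the minimum of a mean above 10 counts, which left 8 genes tested. VIM passed it but lay under the abundance limit of logCPM above 1, so that 7 genes could be called, at an FDR under 0.05. Of these, CDH2 had 0 counts in every A431 library. It could therefore not be called for a treatment effect in that line, over both lines or as a difference of that effect between the lines. Of the 14673 genes tested, 12237 lay above the abundance limit. The shares of all genes called that are given below also count the genes under it.

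**Figure D1:**
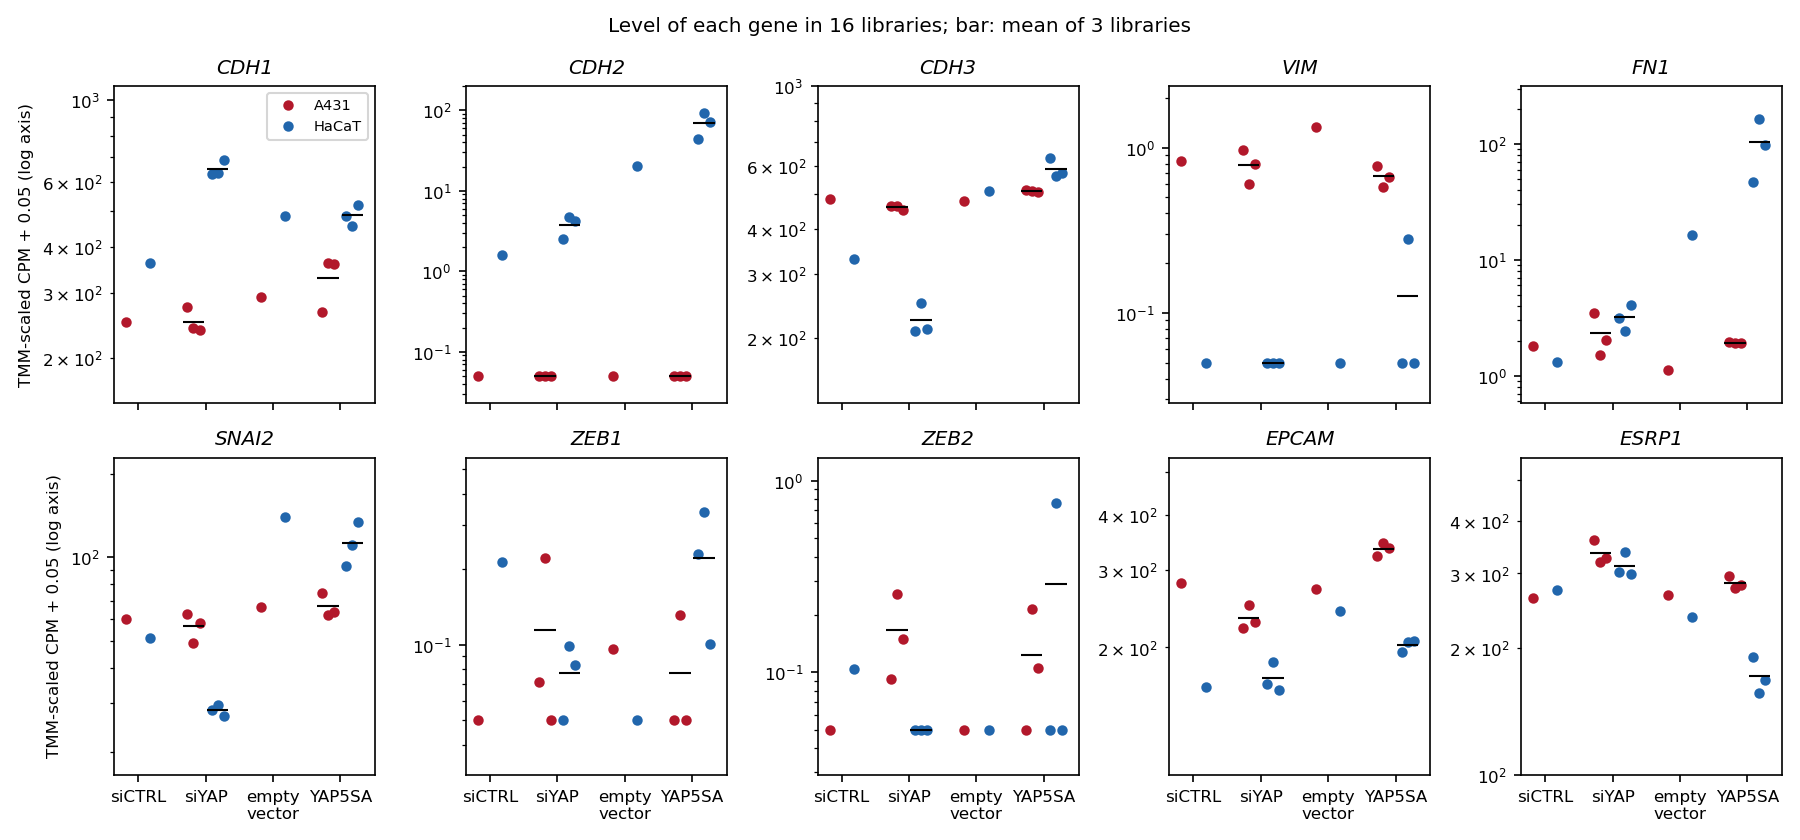
Level of each gene (TMM-scaled CPM + 0.05, log axis) in the 16 libraries, by condition, with A431 in red and HaCaT in blue; each point is 1 library, each bar the mean of 3, and points at the lower edge of CDH2, VIM, ZEB1 and ZEB2 are counts of 0. CDH2 was at 0 in all 8 A431 libraries, and FN1 and CDH2 were highest in the 3 HaCaT YAP5SA libraries.

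The promoters of CDH2 and FN1 are shown because these 2 genes both rose with YAP5SA in HaCaT cells. Each runs from 250 bases before to 50 bases after the start of the gene on the minus strand, taken from RefSeq (GRCh38.p14), at chr18:28177081-28177380 for CDH2 and chr2:215436019-215436318 for FN1. Capitals mark matches to 4 motifs searched on both strands.
CDH2: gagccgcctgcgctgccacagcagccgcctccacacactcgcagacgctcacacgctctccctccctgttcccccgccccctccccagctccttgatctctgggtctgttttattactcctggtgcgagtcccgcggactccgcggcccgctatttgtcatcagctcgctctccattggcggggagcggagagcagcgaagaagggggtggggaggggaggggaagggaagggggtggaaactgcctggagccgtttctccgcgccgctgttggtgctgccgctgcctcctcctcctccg
FN1: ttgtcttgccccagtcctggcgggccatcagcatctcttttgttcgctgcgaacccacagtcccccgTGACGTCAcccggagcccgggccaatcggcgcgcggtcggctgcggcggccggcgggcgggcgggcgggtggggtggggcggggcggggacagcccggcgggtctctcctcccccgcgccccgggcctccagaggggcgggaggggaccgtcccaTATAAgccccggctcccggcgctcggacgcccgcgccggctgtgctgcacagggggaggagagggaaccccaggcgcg
The FN1 window held a TATAA match 28 bases and a TGACGTCA match (the cyclic AMP response element) 183 bases before the start, motifs found in 20.4% and 1.85% of the 35116 promoters of the same length. Neither window held the E-box CAGGTG or the TEAD motif GGAATG on either strand, which 20.6% and 14% of promoters hold, and CDH2 held none of the 4. Among the 10 genes 5 had a promoter in the RefSeq table, and of these ZEB1 alone held an E-box and a TEAD match. A match describes the letters only.

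The first question was how the genes respond to loss of YAP1. In HaCaT cells CDH1 rose and CDH3 and SNAI2 fell with siYAP, and in A431 cells none of the 7 genes was called by edgeR or by DESeq2 (1 had an unadjusted p under 0.05). Of all 14673 genes tested, 5.67% were called in HaCaT cells and 5.6% in A431 cells.

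CDH1 had 363 CPM in the HaCaT siCTRL library and 631, 636 and 691 CPM in the 3 siYAP libraries. Every siYAP library lay above the control. In these bulk cultures a change in the share of cells and a change in RNA per cell cannot be told apart. The log2 fold change was 0.85 (SE 0.18, FDR = 0.0156 by edgeR's quasi-likelihood test). CDH1 was called without any 1 of the 3 siYAP libraries (0.80 to 0.87). In A431 cells CDH1 had 251 CPM with siCTRL against 275, 241 and 239 CPM with siYAP, so that the control lay within the treated range (log2 fold change 0, SE 0.17).

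CDH3 had 331 CPM with siCTRL against 208, 250 and 211 CPM with siYAP in HaCaT cells. All treated libraries were below the control, and the log2 fold change was -0.57 (SE 0.13, edgeR FDR = 0.0201). The call was lost without siYAP replicate 1 (-0.52, edgeR FDR = 0.0651), without replicate 3 (-0.53, edgeR FDR = 0.0647) and with each line fitted alone (-0.59, edgeR FDR = 0.0876). In A431 cells CDH3 had 484 CPM with siCTRL against 465, 464 and 451 CPM with siYAP (log2 fold change -0.07, SE 0.13).

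SNAI2 had 51.2 CPM with siCTRL against 28.3, 29.4 and 26.9 CPM with siYAP in HaCaT cells. The 3 siYAP libraries were closely grouped below the control, and the log2 fold change was -0.86 (SE 0.19, edgeR FDR = 0.0166). With each line fitted alone the value was -0.88 and the call was lost (edgeR FDR = 0.0516). In A431 cells SNAI2 had 60 CPM with siCTRL against 62.7, 49.1 and 58.3 CPM with siYAP (log2 fold change -0.08, SE 0.19). Beside the 3 calls in HaCaT cells, the melanocyte markers summed to 45.2 CPM with siCTRL and 104 to 118 CPM with siYAP, and their part in these results was not tested.

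CDH2 had 1.53 CPM with siCTRL against 2.48, 4.61 and 4.13 CPM with siYAP in HaCaT cells, and the difference of 1.28 on the log2 scale (SE 0.56) was not called (edgeR FDR = 0.236). FN1 had 1.26 CPM with siCTRL against 3.1, 2.38 and 4 CPM with siYAP, and the log2 difference of 1.34 (SE 0.75) was not called either (edgeR FDR = 0.345). Both genes rest on few counts in these libraries, and both values turned negative when siCTRL and empty vector were pooled as 2 controls (-1.55 for CDH2 and -1.49 for FN1). EPCAM differed by 0.06 (SE 0.13) and ESRP1 by 0.19 (SE 0.14) on the log2 scale, neither called.

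In A431 cells the largest values after siYAP among the well-measured genes were those of ESRP1 and EPCAM. ESRP1 had 263 CPM with siCTRL against 361, 320 and 327 CPM with siYAP (log2 fold change 0.36, SE 0.14, edgeR FDR = 0.155). EPCAM had 280 CPM with siCTRL against 221, 250 and 228 CPM with siYAP (log2 fold change -0.26, SE 0.12, edgeR FDR = 0.228). Although all siYAP libraries lay on 1 side of the control for both genes, neither difference was past the threshold. With 3 libraries against 1, the smallest p of an exact permutation is 0.25, which holds for every comparison with a control, called or not.

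The difference of the siYAP effect between the lines was tested directly. None of the 7 genes was called by edgeR and 1 by DESeq2 (CDH1), 3 had an unadjusted p under 0.05, and 0.17% of all genes were called. CDH2 could not be called in this test or over both lines, because it had 0 counts in A431 cells. The log2 difference, HaCaT minus A431, was 0.84 (SE 0.24, edgeR FDR = 0.188) for CDH1, -0.78 (SE 0.27, edgeR FDR = 0.288) for SNAI2 and -0.50 (SE 0.19, edgeR FDR = 0.33) for CDH3. The calls in HaCaT cells are therefore not shown to be particular to that line. Over both lines CDH1 (0.42, SE 0.12), CDH3 (-0.32, SE 0.09) and SNAI2 (-0.47, SE 0.13) were called, against 13% of all genes, but leaving out 1 treated library left between 0 and 2 of these 3 calls.

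The second question was how the genes respond to active YAP1. In HaCaT cells FN1 and CDH2 rose and ESRP1 fell with YAP5SA, whereas in A431 cells none of the genes was called by edgeR or by DESeq2 (1 had an unadjusted p under 0.05). The share of all tested genes called was 13.6% in HaCaT cells and 0% in A431 cells. In that line 828 of the tested genes were under 0.05 by unadjusted p, and DESeq2 called 3. A431 YAP5SA replicate 1 stood apart from the other 2, with a chi-square per degree of freedom of 78.8 and 73 against 6.82 between those, and without it 87 genes were called in A431 cells, none of them among the 7. In HaCaT cells 1140 to 2907 genes were called without 1 YAP5SA library, lowest without replicate 3, against 2001 with all.

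FN1 had 16.3 CPM with the empty vector and 47.3, 164 and 97.1 CPM in the 3 HaCaT YAP5SA libraries. The lowest YAP5SA library was well above the control, and the log2 fold change was 2.65 (SE 0.60, FDR = 0.0146 by edgeR). FN1 remained called without any 1 YAP5SA library (2.14 to 3.0). Among the same libraries the 10 fibroblast markers summed to 1.34 CPM with the empty vector, 1.55 to 2.84 CPM with YAP5SA, and in the siRNA arm to 22.3 CPM with siCTRL and 21.5 to 28 CPM with siYAP, and 4 of them, COL1A2, COL3A1, THY1 and POSTN, had 3 counts or fewer in every HaCaT library. In A431 cells FN1 had 1.06 CPM with the empty vector and 1.89, 1.88 and 1.86 CPM with YAP5SA, from 23 to 67 counts a library (log2 fold change 0.83, SE 0.76, edgeR FDR = 0.857).

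CDH2 had 20.1 CPM with the empty vector and 43.3, 91.6 and 71 CPM with YAP5SA in HaCaT cells. All 3 treated libraries were above the control, and the log2 fold change was 1.77 (SE 0.45, edgeR FDR = 0.0338). The call was lost without YAP5SA replicate 3 (1.74, edgeR FDR = 0.072), with each line fitted alone (1.78, edgeR FDR = 0.052) and with 2 controls (2.64, edgeR FDR = 0.0706). In A431 cells CDH2 had 0 counts in every library, so no fold can be given.

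ESRP1 had 237 CPM with the empty vector and 190, 156 and 168 CPM with YAP5SA in HaCaT cells. The log2 fold change was -0.47 (SE 0.13, edgeR FDR = 0.0337), with every YAP5SA library below the control. The call was lost without YAP5SA replicate 2 (-0.41, edgeR FDR = 0.0532), without replicate 3 (-0.46, edgeR FDR = 0.0746), with no count filter (-0.47, edgeR FDR = 0.0678) and with each line fitted alone (-0.46, edgeR FDR = 0.101). In A431 cells ESRP1 had 266 CPM with the empty vector and 296, 277 and 282 CPM with YAP5SA (log2 fold change 0.10, SE 0.14).

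The remaining genes were not called with YAP5SA in HaCaT cells. CDH1 had 485 CPM with the empty vector and 487, 456 and 520 CPM with YAP5SA (log2 fold change 0.01, SE 0.17). SNAI2 had 140 CPM with the empty vector and 93.4, 111 and 134 CPM with YAP5SA (log2 fold change -0.31, SE 0.18, edgeR FDR = 0.266). FN1 and CDH2 thus rose in libraries in which the CDH1 level lay on both sides of the control. CDH3 differed by 0.20 (SE 0.13) and EPCAM by -0.25 (SE 0.12, edgeR FDR = 0.175). VIM had 8 counts in YAP5SA replicate 2 and 0 in the other 7 HaCaT libraries. That library also held the most YAP1 (22200 CPM), FN1 and CDH2, and 25 of the 26 ZEB2 counts of HaCaT cells.

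**Figure D2:**
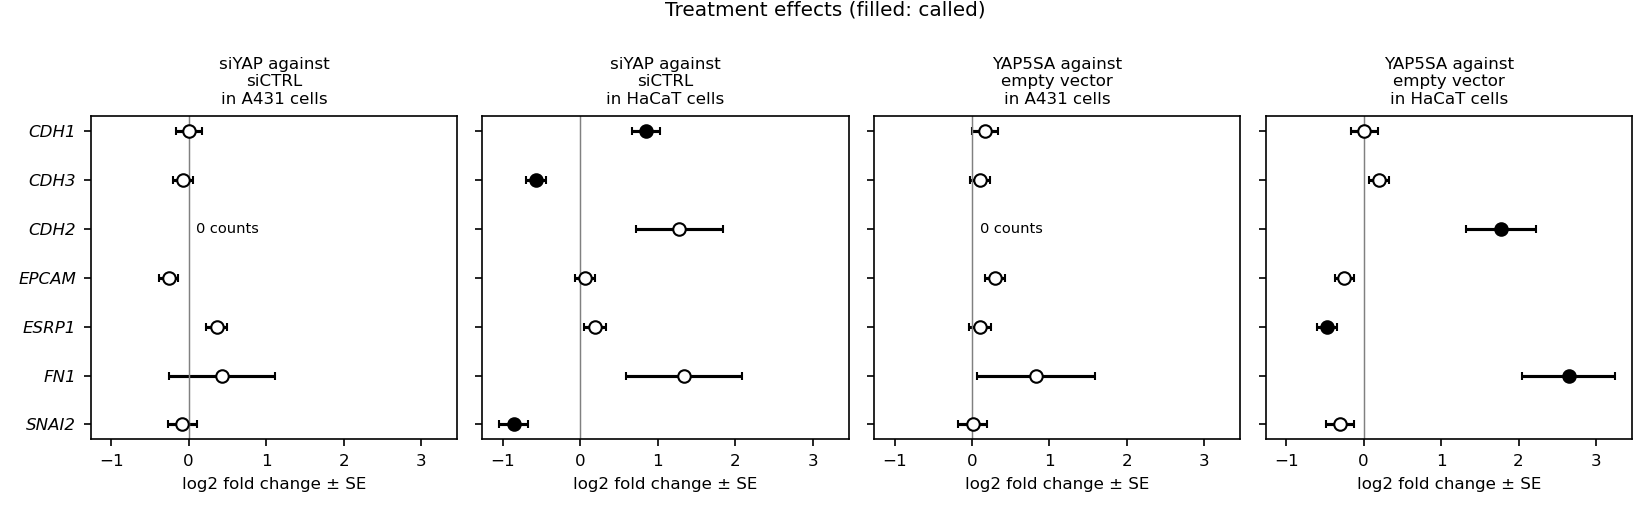
Log2 fold change (x axis, bars ± SE) of 7 genes in the 4 comparisons of 3 treated libraries with 1 control; filled points were called at an FDR under 0.05, and CDH2 had 0 counts in A431 cells. The filled points are CDH1, CDH3 and SNAI2 for siYAP and CDH2, ESRP1 and FN1 for YAP5SA, all in HaCaT cells.

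In A431 cells EPCAM had 271 CPM with the empty vector and 322, 346 and 337 CPM with YAP5SA (log2 fold change 0.30, SE 0.13, edgeR FDR = 0.803). CDH2 had 0 counts in every A431 library, so its YAP5SA effect could not be compared between the lines or taken over both. For the difference of the YAP5SA effect between the lines edgeR called none of the 7 genes and 0.0886% of all genes, DESeq2 called 1 (EPCAM), and 2 had an unadjusted p under 0.05. The 13 genes behind that share became 876 without A431 YAP5SA replicate 1, and 613 and 498 without HaCaT YAP5SA replicates 1 and 2. They became 217 where each library had to exceed 10 counts and 943 with DESeq2. The count fell to 1 without A431 YAP5SA replicate 2, without A431 YAP5SA replicate 3 and with 2 controls. Without HaCaT YAP5SA replicate 3 it was 12. Except with DESeq2 none of these genes was among the 7. The difference of the YAP5SA effect was -0.56 (SE 0.18, edgeR FDR = 0.107) for EPCAM, -0.57 (SE 0.19, edgeR FDR = 0.124) for ESRP1 and 1.82 (SE 0.96, edgeR FDR = 0.279) for FN1, as HaCaT minus A431. Over both lines none of the genes was called, against 2.04% of all genes, and FN1 was the 1 gene with an unadjusted p under 0.05 (1.74, SE 0.47, edgeR FDR = 0.0696), called by DESeq2.

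The controls themselves differed in HaCaT cells, a comparison added after the values were seen. CDH2 had 632 counts with the empty vector and 28 with siCTRL, a CPM ratio of 13.2 (95% exact interval 9.02 to 20). FN1 had 513 and 23 counts, a ratio of 13 (8.57 to 20.7), and SNAI2 had 4398 and 938 counts, a ratio of 2.73 (2.55 to 2.94). These 3 of the 8 tested genes were past 2-fold on the log2(CPM + 0.5) scale, against 32.1% of all tested genes. In A431 cells none was past 2-fold, against 5.85% of all tested genes. Each ratio compares 2 libraries, and its interval covers counting error only. The way the cells were treated, the time of culture and the individual library cannot be told apart here.

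**Figure D3:**
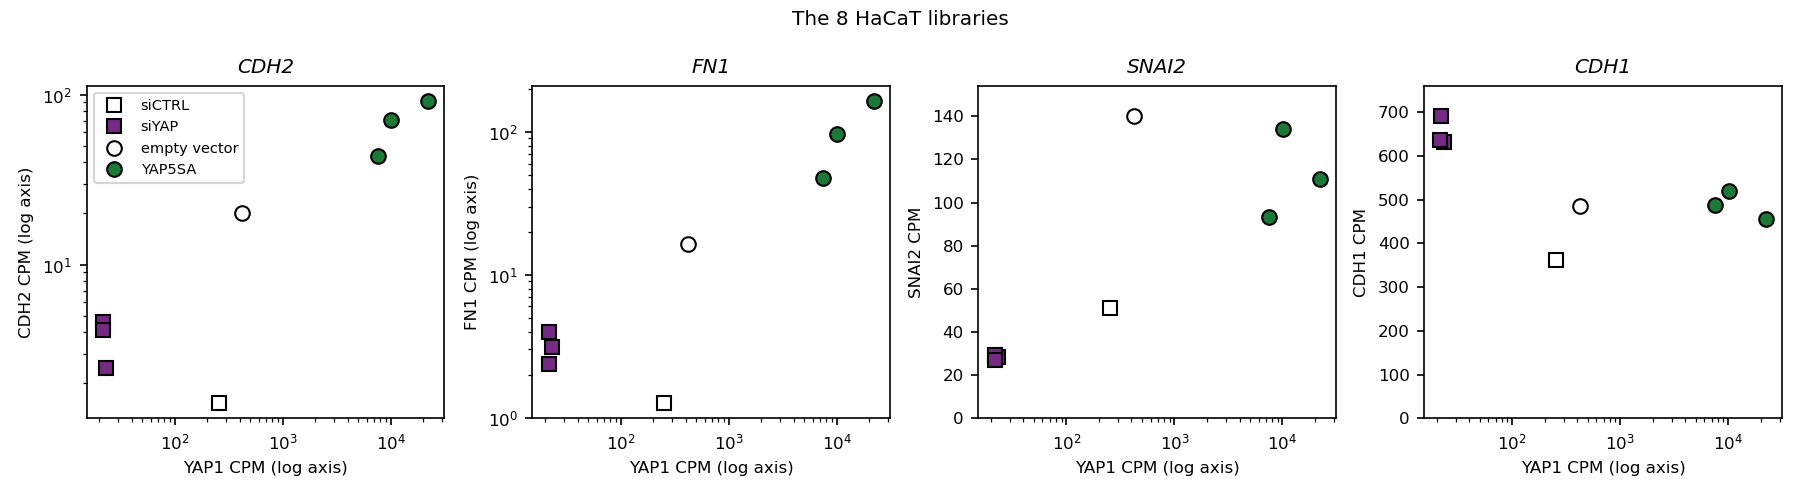
Level of CDH2, FN1, SNAI2 and CDH1 (y axis, CPM) against YAP1 (x axis, CPM, log axis) in the 8 HaCaT libraries; squares are the siRNA arm, circles the vector arm, and open symbols the single controls. The empty vector library had 13.2 times the CDH2 level of the siCTRL library.

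The third question was how the 2 lines differ under the same treatment, where each group had 3 libraries. Among siYAP libraries 5 of the 7 genes were called, against 58.5% of all genes, and among YAP5SA libraries 6 of the 7, against 50.2%. These shares are over all 14673 tested genes, of which 12237 could be called by abundance, so the shares among callable genes are higher. The largest gap was that of CDH2. Its mean in HaCaT cells was at least 35.5-fold higher than in A431 cells with siYAP (3.74 ± 1.12 CPM, SD, n = 3) and at least 614-fold higher with YAP5SA (68.6 ± 24.2 CPM), set against 3 counts in each A431 library.

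CDH1 was lower in A431 cells in both arms, with a log2 difference, A431 minus HaCaT, of -1.37 (SE 0.12, edgeR FDR = 4.59e-07) among siYAP and -0.56 (SE 0.12, edgeR FDR = 0.00141) among YAP5SA libraries. EPCAM was higher in A431 cells in both arms, by 0.46 (SE 0.09, edgeR FDR = 0.000441) and 0.72 (SE 0.09, edgeR FDR = 1.39e-05). The carcinoma line thus had less CDH1 and more EPCAM than the keratinocyte line, without overlap between the libraries of either arm.

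SNAI2 changed sides between the arms. It was higher in A431 cells among siYAP libraries (1.01, SE 0.14, edgeR FDR = 2.26e-05) and lower among YAP5SA libraries (-0.76, SE 0.13, edgeR FDR = 0.000323). CDH3 was higher in A431 cells among siYAP libraries (1.05, SE 0.09, edgeR FDR = 4.97e-07) and not called among YAP5SA libraries (-0.20, SE 0.09, edgeR FDR = 0.0824), where RLE size factors (-0.24) and DESeq2 (-0.24) called it. FN1 was not called among siYAP libraries (-0.43, SE 0.43, edgeR FDR = 0.392) and was lower in A431 cells among YAP5SA libraries (-5.77, SE 0.45, edgeR FDR = 2.82e-07). ESRP1 showed no called difference among siYAP libraries (0.11, SE 0.10) and was higher in A431 cells among YAP5SA libraries (0.74, SE 0.10, edgeR FDR = 2.73e-05).

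VIM was measured in A431 cells (13 to 44 counts a library) and was at 0 in 7 of 8 HaCaT libraries. Its mean was at least 6.16-fold higher in A431 than in HaCaT cells among siYAP libraries, at 0.741 ± 0.187 CPM (SD, n = 3). Although the FDR was 0.00117 by the edgeR test, this gene is too low in abundance to be called.

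The change of this gap between the arms was tested among the 12 treated libraries, as a comparison added after the values were seen. As HaCaT minus A431 with YAP5SA, less the same with siYAP, it was 5.34 for FN1 (SE 0.60, edgeR FDR = 1.99e-05), 1.77 for SNAI2 (SE 0.19, edgeR FDR = 1.47e-05) and 1.25 for CDH3 (SE 0.13, edgeR FDR = 1.23e-05). It was -0.81 for CDH1 (SE 0.17, edgeR FDR = 0.00196) and -0.63 for ESRP1 (SE 0.14, edgeR FDR = 0.00233). These 5 of the 7 genes were called, against 40.2% of all tested genes, a share that also counts genes too low in abundance to be called. CDH2 could not be called in this comparison, because it had 0 counts in every A431 library. Between the single control libraries the gap of FN1, SNAI2 and CDH3 also moved between the arms, untested, from 0.37 with siCTRL to -3.44 with the empty vector for FN1, from 0.23 to -1.07 for SNAI2 and from 0.55 to -0.09 for CDH3, on the scale of A431 minus HaCaT log2(CPM + 0.5). For CDH1 it moved from -0.53 to -0.72 in the controls and from -1.37 to -0.58 in the treated libraries, which is the opposite direction, and for ESRP1 from -0.06 to 0.16 in the controls and from 0.11 to 0.74 in the treated libraries. By design all siYAP libraries belong to the siRNA arm and all YAP5SA libraries to the vector arm, so YAP1 activity and the arm cannot be told apart in this comparison.

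**Figure D4:**
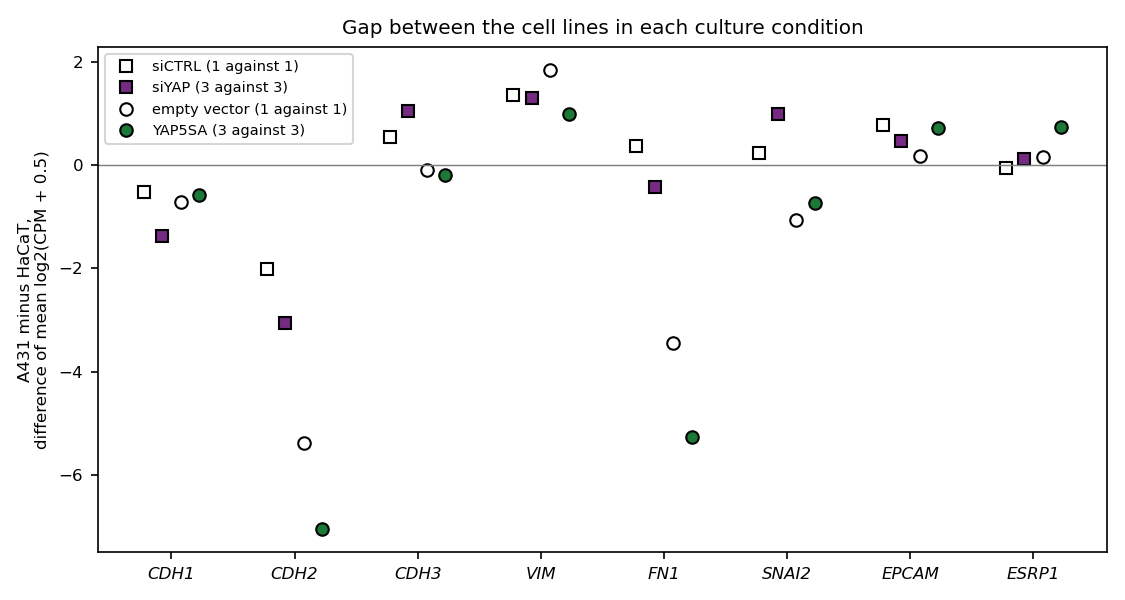
Difference of mean log2(CPM + 0.5), A431 minus HaCaT (y axis), for 8 genes in each condition; squares are the siRNA arm, circles the vector arm, open symbols 1 library against 1 and filled symbols 3 against 3. SNAI2 lies above 0 in the siRNA arm and under 0 in the vector arm, in controls and treated libraries.

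The profile of each callable gene was compared with 12237 genes of logCPM above 1 by Pearson's r over the 16 libraries, after the mean of each line was taken out. These values describe libraries that share arms and controls, and those of CDH2 rest on the 8 HaCaT libraries, since it was at 0 in A431 cells. The profile most like that of CDH2 was PLAUR (r = 0.984), and HS3ST2 (0.982) was also among the 3 nearest. For FN1 the nearest were ABL2 (0.987), SLFN12 (0.978) and CDH2 (0.976). For SNAI2 they were NT5C3A (0.978), COPB2 (0.977) and RTP4 (0.976), and for CDH3 UQCC2 (0.992), IL27RA (0.99) and ASPH (0.987). CDH1 was nearest to RABGGTA (0.901), SEL1L3 (0.899) and CREM (0.891), EPCAM to DNAJC19 (0.95), KIAA1715 (0.95) and UBE2D2 (0.948), and ESRP1 to NRBP1 (0.972), LOC100130899 (0.966) and ANKIB1 (0.965). Among the genes themselves, r was 0.95 between SNAI2 and CDH3, -0.865 between CDH2 and ESRP1 and -0.42 between SNAI2 and CDH1.

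Other genes of the same pathways were taken from 8 lists. The tested genes of a list include some under the abundance limit of logCPM above 1, which could not be called. Of the 10 further transcription factors of the transition, 5 were tested and none was called in any of the 4 comparisons with a control. Among these, SNAI1 and SNAI3 had group means of at most 1.14 and 1.52 CPM, too low in abundance to be called. The shares of all tested genes called were 5.6% and 5.67% with siYAP in A431 and HaCaT cells, and 0% and 13.6% with YAP5SA. KLF8, a Krüppel-like factor, had 0.0459 to 0.258 CPM in A431 cells and was lower there than in HaCaT cells among siYAP (-6.55, SE 0.42, edgeR FDR = 2.16e-08) and YAP5SA libraries (-5.82, SE 0.44, edgeR FDR = 2.14e-07). TWIST1 had at most 10 counts in a library, and PRRX1 and GSC had 0.

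Of 11 tested epithelial regulators, 1 fell with siYAP in each line, and it was GRHL2, a grainyhead-like factor that maintains epithelial genes (-0.49, SE 0.12, edgeR FDR = 0.0297 in A431 and -0.48, SE 0.12, edgeR FDR = 0.0289 in HaCaT cells). With YAP5SA 3 fell in HaCaT cells, namely ELF3 (-0.82, SE 0.25), GRHL1 (-0.75, SE 0.16) and KLF5 (-0.72, SE 0.20), and none rose. Of 9 tested catenins and cadherin partners, 2 rose with YAP5SA in HaCaT cells, the nectin PVRL2 (1.33, SE 0.16, edgeR FDR = 0.00102) and the actin-binding vinculin VCL (0.44, SE 0.12, edgeR FDR = 0.0257), and none was called with siYAP in either line. Of all tested genes 13.6% were called with YAP5SA in HaCaT cells, 5.6% with siYAP in A431 cells and 5.67% with siYAP in HaCaT cells.

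Of 5 other cadherins tested, 3 rose with YAP5SA in HaCaT cells and none fell, where 13.6% of all tested genes were called, 1026 of them higher. CDH4 rose by 2.16 (SE 0.64, edgeR FDR = 0.0396), CDH24 by 1.14 (SE 0.31, edgeR FDR = 0.0278) and the endothelial cadherin CDH5 by 2.35 (SE 0.64, edgeR FDR = 0.0304), the last from 0.127 CPM (4 counts) to 0.316 to 0.994 CPM. CDH5 passed the abundance limit through the siRNA arm, where it had 12.1 to 51.8 CPM in the libraries of both lines. With siYAP CDH5 fell in HaCaT cells (-2.03, SE 0.28, edgeR FDR = 0.00148), from 51.8 CPM to 12.1 to 13.6 CPM, and CDH13 rose in A431 (0.95, SE 0.22, edgeR FDR = 0.0272) and HaCaT cells (1.30, SE 0.21, edgeR FDR = 0.00367). The 5 endothelial markers, which include CDH5 itself, summed to 59.1 CPM with siCTRL and 16 to 19.8 CPM with siYAP in HaCaT cells. In the vector arm they summed to 2.1 CPM with the empty vector and 1.52 to 2.46 CPM with YAP5SA. CDH5 made up most of the sum in the siRNA arm, so the sum is not a measure separate from CDH5. The part of endothelial cells in the CDH5 result was not tested.

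Of 16 tested receptors and matrix partners of fibronectin, 3 rose and none fell with YAP5SA in HaCaT cells, a share near the 13.6% of all tested genes called in either direction. They were the matrix protein THBS1 (2.21, SE 0.32, edgeR FDR = 0.00312), the crosslinking enzyme TGM2 (2.59, SE 0.72, edgeR FDR = 0.0318) and ITGA5, the alpha subunit of the fibronectin receptor (1.01, SE 0.18, edgeR FDR = 0.00649). TGM2 was low in HaCaT cells, at 0.605 CPM (19 counts) with the empty vector and 2.89, 4.65 and 3.44 CPM with YAP5SA. It passed the abundance limit through A431 cells, where it had 12.7 to 113 CPM. ITGA5 had 86.2 CPM with the empty vector and 153, 201 and 167 CPM with YAP5SA. With siYAP 1 rose and 2 fell in A431 cells, and 1 rose and 1 fell in HaCaT cells, against 5.6% and 5.67% of all tested genes. The collagen-modifying enzyme PLOD2 fell in A431 (-2.48, SE 0.16, edgeR FDR = 1.73e-05) and in HaCaT cells (-2.82, SE 0.18, edgeR FDR = 1.11e-05), and the integrin subunit ITGAV fell in A431 cells (-0.67, SE 0.17, edgeR FDR = 0.0426). The lysyl oxidase LOXL2 rose in A431 cells (1.31, SE 0.27, edgeR FDR = 0.0141) and the integrin subunit ITGA4 in HaCaT cells (1.98, SE 0.37, edgeR FDR = 0.00799).

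Of 9 tested filament and contractile genes, 3 rose and 1 fell with YAP5SA in HaCaT cells, and the actin-bundling FSCN1 rose by 1.39 (SE 0.23, edgeR FDR = 0.00494) whereas S100A4 fell by 1.03 (SE 0.32, edgeR FDR = 0.0474). The tropomyosin TPM2 was also among those that rose (1.06, SE 0.27, edgeR FDR = 0.024). It was low in HaCaT cells, at 0.923 CPM (29 counts) with the empty vector and 1.79, 2.3 and 1.73 CPM with YAP5SA. Its abundance came mainly from A431 cells, where it had 103 to 164 CPM. None of the 9 filament and contractile genes was called with siYAP in either line. Of 12 epithelial surface genes tested, 4 rose and none fell with YAP5SA in HaCaT cells, among them CLDN4 (0.92, SE 0.18, edgeR FDR = 0.00874) and PRSS8 (0.95, SE 0.27, edgeR FDR = 0.037), and CLDN7 fell with siYAP (-0.63, SE 0.17, edgeR FDR = 0.0398). Of 9 genes whose splicing ESRP1 is known to control, FGFR2 fell with siYAP in A431 (-0.57, SE 0.15, edgeR FDR = 0.0416) and HaCaT cells (-0.56, SE 0.14, edgeR FDR = 0.0388), and these were the only calls with siYAP in that list. With YAP5SA in HaCaT cells 1 rose, ARHGEF11 (0.73, SE 0.19, edgeR FDR = 0.0268), and 1 fell, SLK (-0.89, SE 0.13, edgeR FDR = 0.00331). The shares of all tested genes called were 13.6% with YAP5SA in HaCaT cells, 1026 genes of these higher, and 5.67% and 5.6% with siYAP in HaCaT and A431 cells. The table holds 1 value per gene, so splice forms could not be read. With YAP5SA in A431 cells edgeR called 0% of all tested genes, and so none in any list.

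With YAP5SA in HaCaT cells the median log2 fold change was 1.14 for the other cadherins, 0.98 for the filament and contractile genes and 0.45 for the transcription factors, against 0.013 for all tested genes, and lay between -0.17 and 0.10 for the other 5 lists. With siYAP in HaCaT cells the same lists, in that order, had medians of 0.96, 0.64 and 0.40. In HaCaT cells they thus lay above the median of all tested genes with either treatment. With siYAP in A431 cells they had 0.95, -0.37 and 0.21. They hold 5, 9 and 5 tested genes, some with few counts, such as ACTA2 with 30 in the HaCaT empty vector library. With siYAP all list medians lay between -0.10 and 0.96 in HaCaT and between -0.37 and 0.95 in A431 cells, against 0.028 and 0.029 for all tested genes. With YAP5SA in A431 cells they lay between -0.36 and 0.11, against 0.02.

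Between the lines the epithelial regulators had 4 genes higher and 6 lower in A431 cells among siYAP libraries, and 4 higher and 2 lower among YAP5SA libraries. KLF4, a factor of differentiating keratinocytes, was higher in A431 cells in both arms (4.25, SE 0.23, and 1.5, SE 0.20), and OVOL2, a repressor of mesenchymal genes, was lower (-4.30, SE 0.30, and -3.27, SE 0.31). Of the filament and contractile genes 4 were higher and 1 lower among siYAP libraries, and 4 and 2 among YAP5SA libraries, with the tropomyosin TPM2 higher in A431 cells by 4.92 (SE 0.15) and 6.24 (SE 0.16). Fibronectin partners had 8 genes higher and 2 lower among siYAP libraries and 7 and 4 among YAP5SA libraries, and the surface genes 5 and 3 and then 7 and 3. These edgeR calls stand beside the shares of all genes called between the lines, 58.5% and 50.2%.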

How the data were processed

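The authors trimmed the paired reads to 75 bp, quantified them over RefSeq genes using RSEM (1.2.11 per the processing notes, which also name hg19) and deposited 1 table of estimated counts, unscaled and unfiltered, for 26229 genes and 16 libraries. The deposited estimated counts were rounded here and scaled by TMM (factors 0.9137 to 1.074). Genes with a mean above 10 counts (14673) were tested in 1 model of 8 groups by the quasi-likelihood test of edgeR 4.0.16 in R 4.3.3, with 8 residual degrees of freedom, all from the treated triplicates. Genes were called at a Benjamini-Hochberg FDR under 0.05 over all genes and a logCPM above 1. The SE is the log2 fold change divided by the root of F. Biological triplicates are stated in the study's methods, but the labels list 1 control library per arm and line and do not say whether replicates were separate cultures. The p values rest on the spread between the treated libraries, which the tests against a control take to hold for the controls too. Every pair of replicates differed beyond sampling noise.

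The 10 genes and the other lists were chosen with earlier results of these data known. Named genes are the 10, YAP1, EGFR, up to 3 called genes of each list with the largest change, of which some are given, and the 3 most similar profiles, of which 1 is not reported here. TWIST1, PRRX1 and GSC were named after their values were seen. CPM per kilobase used the GENCODE v29 transcript with the longest coding sequence. Same-numbered YAP5SA libraries of the lines deviated together (r = 0.398, 0.163 and 0.162), so their numbers were taken as pairs by a rule of every r over 0.1. Replicate 2 of A431 nevertheless correlated better with replicate 3 of HaCaT (0.323). Deviations from a mean of 3 libraries sum to 0, and A431 replicate 1 stood apart. These r values are therefore not independent, and the pairing stays uncertain. Alternatives were DESeq2 1.42.0, RLE factors, other filters and call rules, each line alone, 2 controls, a replicate block and each treated library left out. The test was checked on simulated data.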

Additional observations from a re-analysis of the deposited data

Results flagged for a closer look

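The gap between the lines differed between the YAP5SA and siYAP arms for 5 genes, by the test of that difference among the 12 treated libraries (edgeR quasi-likelihood, a comparison added after the values were seen). As HaCaT minus A431 with YAP5SA less the same with siYAP, the log2 values were 5.34 for FN1, 1.77 for SNAI2, 1.25 for CDH3, -0.81 for CDH1 and -0.63 for ESRP1. All 5 remained called without any 1 treated library. In the same comparison 40.2% of all tested genes were called, a share that also counts genes too low in abundance to be called. Between the single controls the A431 minus HaCaT gap moved the same way as in the treated libraries for FN1 (0.37 with siCTRL, -3.44 with the empty vector), SNAI2 (0.23, -1.07), CDH3 (0.55, -0.09) and ESRP1 (-0.06, 0.16), and the opposite way for CDH1 (-0.53, -0.72). All siYAP libraries are in the siRNA arm and all YAP5SA libraries in the vector arm, so YAP1 activity and the arm cannot be told apart.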

How the results depend on the processing

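With single controls the spread comes from the treated triplicates, and low counts limit FN1 in A431 cells, VIM, ZEB1 and ZEB2. Of the genes called with siYAP in HaCaT cells (3), 0 had a log2 change of at least 1, 1 stayed with each line fitted alone, and 2 to 3 without 1 library. For YAP5SA in HaCaT cells (3) the counts were 1 with each line alone and 1 to 3 without 1 library. For siYAP over both lines (3) they were 0 at a log2 change of at least 1, 1 with no count filter and 0 to 2 without 1 library. For YAP5SA over both lines (0) they were 1 with DESeq2, 1 with no filter and 0 to 1 without 1 library. Between lines among YAP5SA libraries (6) 2 had a log2 change of at least 1, and for the change of the gap (5) 3 did. DESeq2 called 1 gene in the difference of the siYAP effect (CDH1, 0.84) and 1 in that of the YAP5SA effect (EPCAM, -0.54). The cause was not tested.

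With siCTRL and empty vector as 2 controls the sign turned for siYAP in HaCaT cells for CDH2 (-1.55), FN1 (-1.49) and EPCAM (-0.25), for FN1 over both lines (-0.38), for the difference of the siYAP effect for FN1 (-2.23) and EPCAM (-0.01), and for SNAI2 with YAP5SA in HaCaT cells (0.24), over both lines (0.16) and in the difference of the YAP5SA effect (0.16). Without 1 library, siYAP in A431 cells ranged from -0.30 to 0.11 for VIM, -0.08 to 0.67 for FN1 and -0.18 to 0.01 for SNAI2, siYAP in HaCaT cells from -0.01 to 0.09 for EPCAM, and YAP5SA from -0.08 to 0.05 for SNAI2 in A431 and from -0.04 to 0.05 for CDH1 in HaCaT cells. SNAI2 with YAP5SA in A431 cells was -0.03 with more than 10 counts in every library. None of these values was called.

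The replicate block, fitted on the 12 treated libraries, left 5 genes called between the lines among siYAP libraries, 6 among YAP5SA libraries and 5 for the change of the gap, the counts without it. Of the 3 siYAP numbers, 2 correlated best with their own number in the other line (same-number r = 0.004, 0.099 and 0.256). By the rule of every r over 0.1 the siYAP libraries were not taken as pairs. Pairing is not settled for either arm. No paired fit could be made against the single controls.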
